A study of Mus musculus with 9 samples.

Results

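Heterogeneous nuclear ribonucleoproteins (hnRNPs) are a family of RNA-binding proteins, and 10 of their genes were followed here among the 17487 genes listed for the neocortex libraries: *Hnrnpk*, *Hnrnpa1*, *Hnrnpa2b1*, *Hnrnpa3*, *Hnrnpab*, *Hnrnpd*, *Hnrnpc*, *Hnrnpf*, *Hnrnph1* and *Hnrnpu*. They were chosen by name, with earlier results of these data known. The aim was to see whether a lower level of *Hnrnpk* in *Tcf4* knockout cells is shared by the family. *Hnrnpk*, which the study named as lower, is itself counted among the 10 in the shares below. In all, 20 listed symbols start with Hnrnp. hnRNPs coat newly made transcripts in the nucleus and act in splicing, export, stability and translation of mRNA. They often counteract SR proteins in the choice of splice sites, and in the developing brain the balance of splicing regulators shifts as progenitors become neurons. hnRNP K binds C-rich RNA through KH domains, most of the other members through RNA recognition motifs, and hnRNP U also binds DNA and chromatin.

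Single cells of the mouse neocortex at E18.5, shortly before birth, had been sequenced from the 3′ ends of their transcripts (Chromium 3′ v2), and molecules were counted through their unique molecular identifiers (UMIs). The 9 libraries are labelled wildtype (WT, 5 libraries) or *Tcf4* knockout (KO, 4 libraries), all from littermates of crosses between *Tcf4* haploinsufficient mice with the strain label Tcf4ex4WT/lacZ. In this allele a lacZ cassette interrupts *Tcf4*, which encodes a bHLH transcription factor, ahead of exon 4 in every cell of the body. Effects within a class of cells therefore cannot be told apart from those of other cells. In the homozygous knockout the study found the longest TCF4 protein lost and a shorter one still made. WT2, WT3 and WT4 were compared with KO4 and KO5. The study left small libraries and a WT animal with *Tcf4* below the KO out of its own comparison. It does not name the libraries it kept, and from this account they were taken to be the same. The methods describe a separate dissociation of each cortex, and p-values measure the spread between libraries.

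Cells were assigned to classes by lists of 8 marker genes each, and levels are means over the cells of a class of UMIs per 10000 UMIs of the cell. Kept cells numbered 1184 to 6174 in the 3 WT libraries and 4199 and 2303 in KO4 and KO5, with median UMIs per cell of 2478.5 to 4358 and of 2290 and 2217. Any pair of libraries shared at most 46 cell barcodes. In glutamatergic-like cells *Tcf4* was at 14.5, 14.2 and 14.4 in WT2, WT3 and WT4 and at 9.84 and 7.50 in KO4 and KO5. It was at 7.20 in the library labelled WT replicate 5 and at 21.0 in the library labelled KO replicate 1, against their labels. UMIs come from the 3′ end of transcripts, away from the cassette, so this level is a weak check of the labels.

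The classes were more distinct in WT2, WT3 and WT4 than in KO4, KO5 and the library labelled WT replicate 5. This was measured with genes that no gate used. The summed level of *Hmmr*, *Ccna2* and *Cenpe*, which act in mitosis and the cell cycle, was 42.9- to 82.4-fold higher in cycling than in glutamatergic-like cells of the 3 WT libraries, but 7.52-fold in KO4, 3.81-fold in KO5 and 3.94-fold in the library labelled WT replicate 5. *Neurod1*, *Zbtb18* and *Sla* together were 2.06- to 3.43-fold higher in glutamatergic-like than in radial glia- or astrocyte-like cells of the WT libraries, and 1.23-, 1.12- and 0.991-fold in KO4, KO5 and the library labelled WT replicate 5. The same 3 libraries held more haemoglobin. Its median was 0.271, 0.750 and 0.453% of the UMIs of a cell there, against 0.042 to 0.072% in WT2, WT3 and WT4. Cells with over 1% had already been left out, and this loss was unequal between the genotypes. Of the cells within the other limits it took 13.9% in KO4 and 40.4% in KO5. In WT2, WT3 and WT4 it took 0.421, 1.34 and 0.548%, and 3.71% in the library labelled WT replicate 5. *Actb*, which encodes a cytoskeletal actin, was at 172, 170.1 and 197 UMIs per 10000 over all kept cells of KO4, KO5 and the library labelled WT replicate 5, against 40.5 to 64.3. The library labelled KO replicate 1 stood apart from KO4 and KO5, with 18.8-fold for the cycling genes and 2.23-fold for the glutamatergic genes. Its *Actb* was at 49.9. In KO2 the glutamatergic genes were 3.06-fold, but *Actb* was at 142 and median haemoglobin at 0.150%. WT1, also left out of the comparison, had *Actb* at 200 and median haemoglobin at 0.178%. Each genotype comparison below sets KO4 and KO5 against WT2, WT3 and WT4, so the part of RNA from other cells in the results was not tested, and it cannot be told apart from genotype in the libraries compared.

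**Figure D1:**
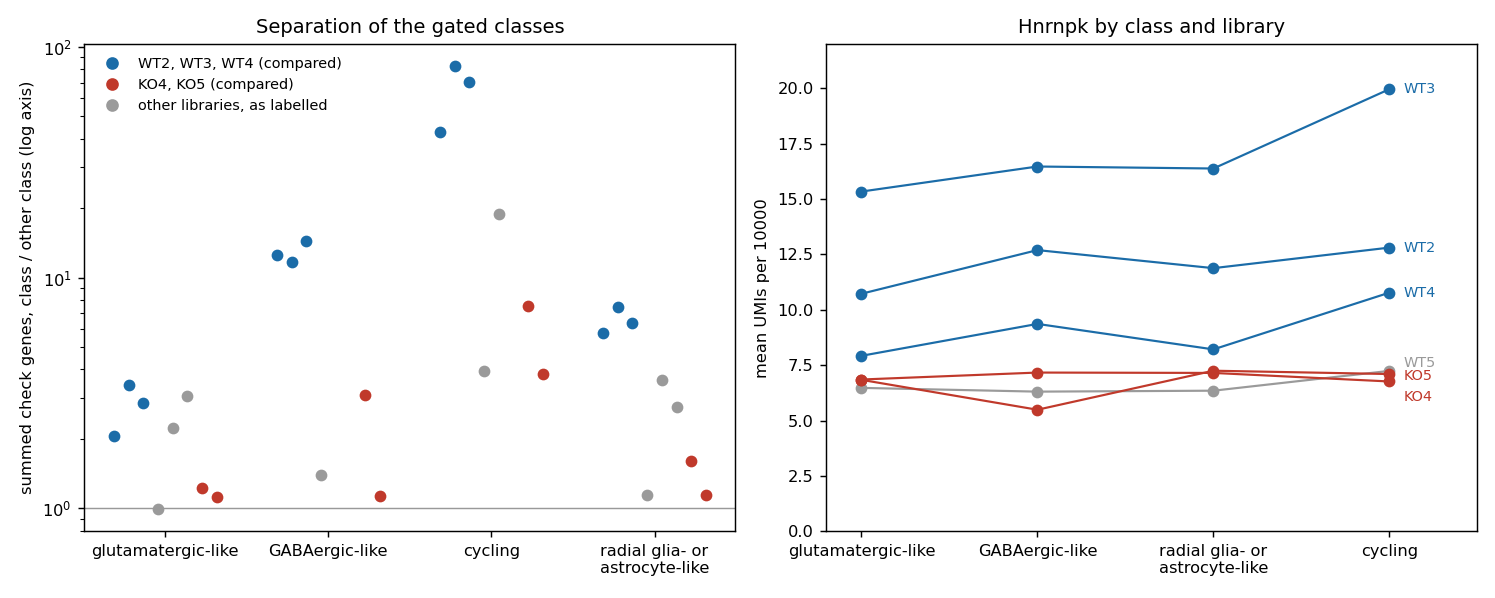
Left, summed level of 3 check genes per class in that class divided by the level in another class (glutamatergic-like, or radial glia- or astrocyte-like for the first class), on a log axis, 1 point per library with at least 20 cells in both. Right, mean *Hnrnpk* UMIs per 10000 by class, 1 line per library. In cycling cells the ratio is at least 42.9 in WT2, WT3 and WT4 and at most 7.52 in KO4 and KO5, and *Hnrnpk* stays between 5.49 and 7.25 in KO4 and KO5.

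On GRCm38 (GENCODE M21), *Hnrnpk* spans chr13:58391142-58403343, holds the microRNA gene *Mir7-1* on its strand and overlaps *Rmi1* on the other. *Hnrnpa1* is at chr15:103240432-103246692, *Hnrnpa2b1* at chr6:51460932-51469894 and *Hnrnpa3* at chr2:75659261-75669407, overlapping *Gm24574*. *Hnrnpab* is at chr11:51600100-51606847 and overlaps *Phykpl*, and *Hnrnpd* is at chr5:99955935-99978938 and overlaps *Gm17092*. *Hnrnpc* is at chr14:52073377-52104028 and *Hnrnph1* at chr11:50376990-50386528. *Hnrnpf* is at chr6:117900324-117925622, overlapping *4933440N22Rik* and *Gm43863*, and *Hnrnpu* at chr1:178321108-178337797, overlapping *Cox20*. Whether strand was used in counting is not given in the sources used here, so UMIs of overlapping genes may be shared, and those of *Hnrnpa1* may be split with annotated pseudogene copies.

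TCF4 binds E-boxes, whose letters are CANNTG, the same on both strands. The 250 bases ahead of the transcription starts of the members (RefSeq, build GRCm38.p6) were searched for them. Of 18 starts, which cover all 10 members, 11 had at least 1 match, and so did 66.2% of all 32851 promoters of this length. *Hnrnpk* and *Hnrnpa1* had none in the stretches searched, while the other 8 had a match at 1 start or more. The stretch of *Hnrnpk* lies ahead of its RefSeq start and inside the longer GENCODE span given above, whose own 5′ end was not searched. The stretches of *Hnrnpk* and *Hnrnpa1* are shown with those of *Hnrnpc* and of the first start of *Hnrnpf*, 5′ to 3′ on the strand of the gene, with each match to CANNTG in capitals.
Hnrnpk, chr13:58402118-58402367 (- strand): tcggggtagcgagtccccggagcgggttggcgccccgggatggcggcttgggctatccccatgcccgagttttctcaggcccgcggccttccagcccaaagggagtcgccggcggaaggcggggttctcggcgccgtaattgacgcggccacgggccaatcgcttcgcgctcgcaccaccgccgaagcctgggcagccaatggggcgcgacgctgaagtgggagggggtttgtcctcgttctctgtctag
Hnrnpa1, chr15:103240147-103240396 (+ strand): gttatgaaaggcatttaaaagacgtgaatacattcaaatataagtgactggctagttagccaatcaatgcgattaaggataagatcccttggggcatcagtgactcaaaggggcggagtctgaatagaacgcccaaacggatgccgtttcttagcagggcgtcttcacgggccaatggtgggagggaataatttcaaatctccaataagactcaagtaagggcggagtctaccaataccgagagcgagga
Hnrnpc, chr14:52104022-52104271 (- strand): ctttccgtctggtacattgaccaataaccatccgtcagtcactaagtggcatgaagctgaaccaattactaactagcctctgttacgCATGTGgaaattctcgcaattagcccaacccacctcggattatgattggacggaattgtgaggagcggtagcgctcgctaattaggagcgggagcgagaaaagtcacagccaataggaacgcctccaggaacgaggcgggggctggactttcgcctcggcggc
Hnrnpf, chr6:117900090-117900339 (+ strand): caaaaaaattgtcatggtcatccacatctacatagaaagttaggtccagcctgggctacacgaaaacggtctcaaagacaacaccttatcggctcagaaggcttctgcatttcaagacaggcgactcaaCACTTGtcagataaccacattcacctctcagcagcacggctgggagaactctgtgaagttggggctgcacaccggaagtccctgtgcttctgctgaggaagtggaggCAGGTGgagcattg
A match is a description of these letters, not a site of binding.

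In WT2, WT3 and WT4, each of the 10 members was highest in cycling cells among 4 classes (cycling, glutamatergic-like, GABAergic-like, and radial glia- or astrocyte-like) in each of the 3 libraries, as were 8.50% of 7091 genes tested. In intermediate progenitor-like cells (43, 90 and 130 cells), which were not among the 4, *Hnrnpc* of WT3 and *Hnrnpab* and *Hnrnpu* of WT2 were higher than in cycling cells, at 6.34, 7.29 and 4.32. In endothelial-like cells of WT4 (38 cells), *Hnrnpf* was at 4.38, against 4.11 in cycling cells. Between cycling and glutamatergic-like cells *Hnrnpf*, which binds G-rich RNA, differed most. It was at 5.24, 6.98 and 4.11 in cycling cells of WT2, WT3 and WT4 and at 2.14, 2.80 and 1.89 in glutamatergic-like cells, with no overlap. *Hnrnpa3*, a relative of hnRNP A1 with a role in RNA transport, was at 8.86, 12.4 and 6.02 in cycling and at 4.49, 6.11 and 3.74 in glutamatergic-like cells. For this gene the classes overlapped between libraries, since WT4 was lower than WT3 in both, and the difference was seen within each library.

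The within-library difference on the log2(level + 1) scale was 0.96 for *Hnrnpf* (adjusted p = 1.01e-08, limma-trend with Benjamini-Hochberg adjustment over all genes) and 0.78 for *Hnrnpa3* (adjusted p = 1.59e-07) in WT2, WT3 and WT4. *Hnrnpa2b1*, *Hnrnpab* and *Hnrnpu* followed with 0.50, 0.50 and 0.48, and *Hnrnpa1* and *Hnrnpk* with 0.38 and 0.33. *Hnrnpc*, which packages nascent RNA, *Hnrnph1* and *Hnrnpd*, an AU-rich element binder, had the lowest values of the 10, at 0.27, 0.25 and 0.24. All 10 were called higher in cycling cells (adjusted p under 0.05), against 17.4% of all genes. This comparison of the WT libraries alone was added after the data had been seen.

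Across all 5 libraries compared, with both genotypes weighted equally, 7 of the 10 members were called higher in cycling cells, against 12.9% of 7818 genes. *Hnrnpf* rose by 0.63 ± 0.06 (SE) and *Hnrnpa3* by 0.61 ± 0.06, each higher in cycling cells of 5 of 5 libraries, and the other called members were *Hnrnpu*, *Hnrnpa2b1*, *Hnrnpab*, *Hnrnpa1* and *Hnrnpk*, with 0.32 to 0.17. *Hnrnpd*, *Hnrnph1* and *Hnrnpc* had values of 0.09, 0.09 and 0.08 and were not called. In KO4 and KO5 the median difference over the members was 0.08 and 0.05, against 0.36 to 0.43 in the WT libraries. The library labelled WT replicate 5 had a median of 0.02 and the library labelled KO replicate 1 of 0.26, and with the former included 2 members (*Hnrnpa3* and *Hnrnpf*) were called.

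**Figure D2:**
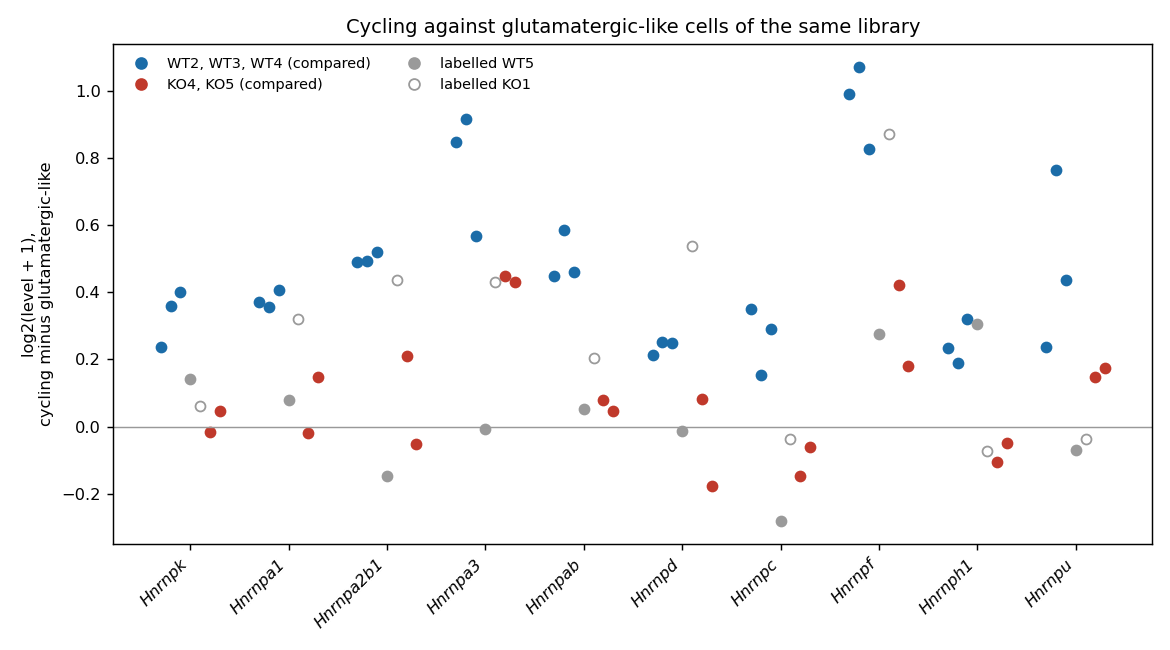
Difference of log2(UMIs per 10000 + 1) between cycling and glutamatergic-like cells of the same library for each hnRNP gene, 1 point per library with at least 20 cells in both classes. All 10 genes lie above 0 in WT2, WT3 and WT4, where the lowest value is 0.15, and 6 of 10 do so in KO4 and in KO5.

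Among radial glia- or astrocyte-like cells, the nonneuronal class with the most cells, the members did not behave alike in WT2, WT3 and WT4. *Hnrnpf* was at 4.004, 5.34 and 3.07, above glutamatergic-like cells of each of the 3 libraries. *Hnrnpab*, which also binds mRNA in the cytoplasm of neurons, was lower there, at 3.63, 4.17 and 4.54 against 4.80, 5.46 and 5.86. *Hnrnpa1*, a repressor of exon inclusion, was at 10.7, 11.1 and 10.8 against 12.7, 14.2 and 12.8. For *Hnrnpk* both classes overlapped across libraries, at 8.22 to 16.4 and 7.93 to 15.3. In radial glia- or astrocyte-like cells of KO4 and KO5, *Hnrnpa1* was at 17.4 and 17.9, above each of WT2, WT3 and WT4. It was at 18.0 in the library labelled WT replicate 5. *Hnrnpk* of this class was at 7.15 and 7.25 in KO4 and KO5, below each of WT2, WT3 and WT4. These levels were not tested.

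In glutamatergic-like cells, 9 of 10 members were lower and *Hnrnpa1* was higher in the mean of KO than of WT, and none was called (limma-trend, 4 members at an unadjusted p under 0.05), while 3.04% of 8289 genes were. *Hnrnpk* was at 10.7, 15.3 and 7.93 in WT2, WT3 and WT4 and at 6.86 and 6.84 in KO4 and KO5. Both KO libraries lay below each WT library, but WT4 was closer to them than to WT2 or WT3. The difference was -0.61 on the log2(level + 1) scale (95% interval -1.10 to -0.12, adjusted p = 0.146, range over alternatives 0.0186 to 0.937). *Hnrnpa1* was at 12.7, 14.2 and 12.8 in WT and at 17.9 and 16.7 in KO, above each WT library, with a difference of 0.36 (95% interval 0.07 to 0.66, adjusted p = 0.147). DESeq2 called it (adjusted p = 0.00994, range over alternatives 0.00994 to 0.949), and edgeR did not (adjusted p = 0.0574).

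Of the other A/B-type members, *Hnrnpa2b1*, which also sorts RNA for transport, was at 7.74, 10.9 and 5.74 in WT and at 5.52 and 5.84 in KO. *Hnrnpa3* was at 3.65 and 3.84 in KO, against 4.49, 6.11 and 3.74 in WT. Both overlapped between the genotypes, because WT4 was as low as KO. The differences were -0.41 and -0.26 (95% intervals -0.87 to 0.05 and -0.62 to 0.10). *Hnrnpab* (-0.16), *Hnrnpd* (-0.07) and *Hnrnpf* (-0.16) overlapped as well.

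*Hnrnpc* was at 3.43, 4.91 and 3.36 in WT and at 2.57 and 2.62 in KO. *Hnrnpu* was at 2.91, 3.17 and 2.22 in WT and at 1.90 and 1.95 in KO, and *Hnrnph1*, a regulator of splicing through G-runs, at 3.12, 3.44 and 2.97 and at 2.81 and 2.72. KO lay below WT without overlap for these 3, with differences of -0.43, -0.35 and -0.15 and adjusted p of 0.123, 0.133 and 0.360 from limma. With *Hnrnpk* this makes 4 of 10 members that lay lower in KO without overlap, against 36.8% of all genes, and 1 of 10 above, against 11.0%. The median over the members was -0.21 and that over all genes -0.04, with 69.2% of all genes lower in KO. Adding 1 to each level shrinks the differences of genes with low levels. All genes were not matched to the members by level. These medians, and the shares of all genes given beside counts of members, are therefore not like for like. Behind each level of a member in glutamatergic-like cells of the libraries compared stood 204 to 19636 UMIs.

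These calls depended on WT4. Without it, 4 members were called lower (*Hnrnpk*, *Hnrnpa2b1*, *Hnrnpc* and *Hnrnpu*, with *Hnrnpk* at -0.82), and the genes called rose from 252 (200 higher and 52 lower) to 1080. Without WT2, KO4 or KO5 they numbered 83, 74 and 44. With the library labelled WT replicate 5 among the WT, no gene was called, and *Hnrnpk* was at -0.44 (adjusted p = 0.694). In the fit with a replicate block over the pairs of replicates 2, 4 and 5, *Hnrnpk* was at -0.08 and no gene was called either. EdgeR called 245 genes higher and 21 lower, and none of them was a member. Of the WT libraries compared, WT4 alone was deposited as UMI counts, as KO4 and KO5 were. WT2 and WT3 were deposited on a log scale, and the part of this split in the differences was not tested.

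**Figure D3:**
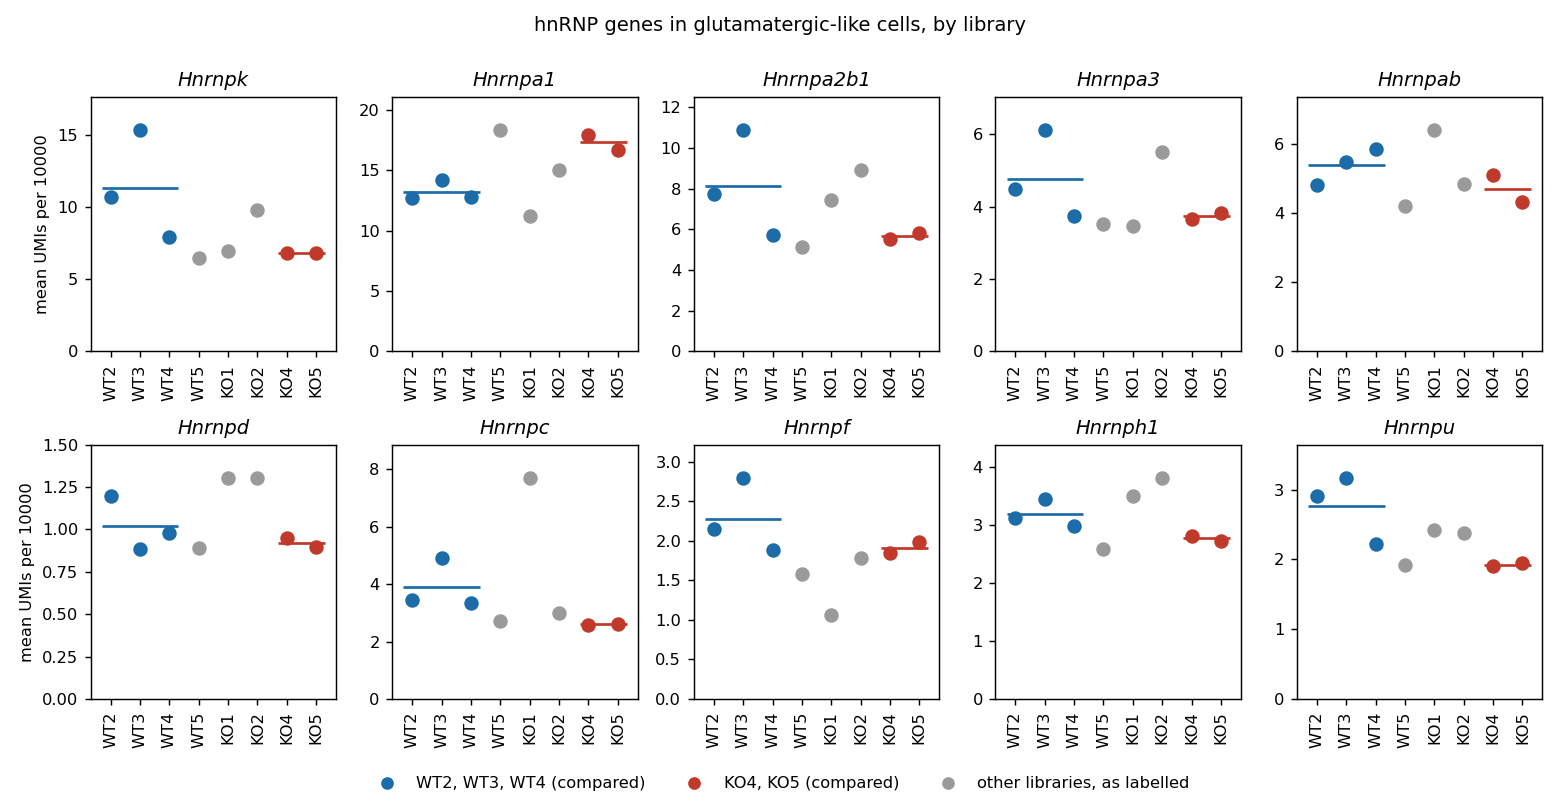
Mean UMIs per 10000 of each hnRNP gene in glutamatergic-like cells, 1 point per library with at least 20 such cells, and lines at the means of the WT (n = 3) and KO (n = 2) libraries compared. *Hnrnpk* lies at 7.93 to 15.3 in WT2, WT3 and WT4 and at 6.84 and 6.86 in KO, *Hnrnpa1* at 12.7 to 14.2 and at 16.7 and 17.9 (neither was called), and *Hnrnpc* stands at 7.70 in the library labelled KO replicate 1.

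In GABAergic-like cells, *Hnrnpk* was called lower in KO, as were 0.451% of 8865 genes, and it was the single member called. It was at 12.7, 16.5 and 9.37 in WT2, WT3 and WT4 and at 7.17 and 5.49 in KO4 and KO5, without overlap. The difference was -0.89 ± 0.21 (SE, adjusted p = 0.0145 from limma, range over alternatives 1.20e-05 to 0.999). *Hnrnpc* was at 4.45, 5.39 and 4.19 in WT and at 2.61 and 2.11 in KO, a difference of -0.75 (adjusted p = 0.0563). *Hnrnpa1* was at 14.4, 16.2 and 15.4 in WT and within this range in KO, at 16.1 and 15.1 (0.02, 95% interval -0.36 to 0.40). *Hnrnpu*, *Hnrnpa2b1*, *Hnrnpa3* and *Hnrnpf* had values of -0.55, -0.44, -0.44 and -0.34, and *Hnrnpab*, *Hnrnph1* and *Hnrnpd* of -0.25, -0.22 and -0.03, and none was called.

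These calls rest on few cells, 60 in KO4 and 23 in KO5, where 107 and 28 UMIs of *Hnrnpk* were counted. *Hnrnpk* was not called without WT2, WT3 or KO5, with the library labelled WT replicate 5 (-0.67, adjusted p = 0.357) or in the fit with the replicate block on other libraries (-0.26, replicates 4 and 5). In KO5 the summed check genes *Lhx6*, *Sp8* and *Nrxn3* of these cells were 1.14-fold the level of glutamatergic-like cells, against 11.7- to 14.5-fold in WT2, WT3 and WT4. In endothelial-like cells *Hnrnpk* was not lower, at 5.69 and 5.55 in WT2 and WT4 and 6.21 in KO4 (24, 38 and 69 cells). *Hnrnpa1* was at 5.78 and 5.77 there and at 13.25 in KO4. In microglia-like cells *Hnrnpk* was at 5.17 in WT4 and 5.97 in KO4 (55 and 46 cells). The other libraries compared had under 20 of these cells, and neither class was tested.

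In cycling cells, 6 of 10 members were called lower in KO, against 7.67% of 8775 genes, and 9 of 10 lay lower without overlap, against 27.9%. For these shares, too, all genes were not matched to the members by level. This class was small, at 59 cells for KO5, 136 for KO4, 114 for WT2, 138 for WT3 and 306 for WT4. In KO5 the called *Hnrnpc*, *Hnrnpu* and *Hnrnpf* rested on 34, 35 and 38 UMIs. The called *Hnrnpab*, *Hnrnpa2b1* and *Hnrnpk* rested on 71, 83 and 102 there. *Hnrnpk* was at 12.8, 19.96 and 10.8 in WT2, WT3 and WT4 and at 6.77 and 7.10 in KO4 and KO5. *Hnrnpa2b1* was at 11.3, 15.7 and 8.66 and at 6.54 and 5.61. *Hnrnpf* was at 5.24, 6.98 and 4.11 and at 2.81 and 2.38. In each of these genes the lowest WT library, WT4, lay above KO, while *Hnrnpa2b1* and *Hnrnpf* of WT4 overlapped with KO in glutamatergic-like cells.

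The difference was -0.92 ± 0.20 (SE) for *Hnrnpk*, -0.83 ± 0.20 for *Hnrnpa2b1*, -0.82 ± 0.18 for *Hnrnpf* and -0.80 ± 0.17 for *Hnrnpc* (adjusted p = 0.00274, 0.00532, 0.00246 and 0.00150 from limma). *Hnrnpc* fell from 4.65, 5.58 and 4.33 to 2.22 and 2.47. *Hnrnpu* and *Hnrnpab* fell by 0.67 and 0.59 on the log2(level + 1) scale (adjusted p = 0.0157 and 0.0236). *Hnrnpa3*, *Hnrnph1* and *Hnrnpd* had values of -0.60, -0.47 and -0.36 (adjusted p = 0.0587, 0.0508 and 0.113), and *Hnrnpa1* was at 16.7, 18.4 and 17.3 in WT and 17.6 and 18.6 in KO (0.05, 95% interval -0.32 to 0.42).

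**Figure D4:**
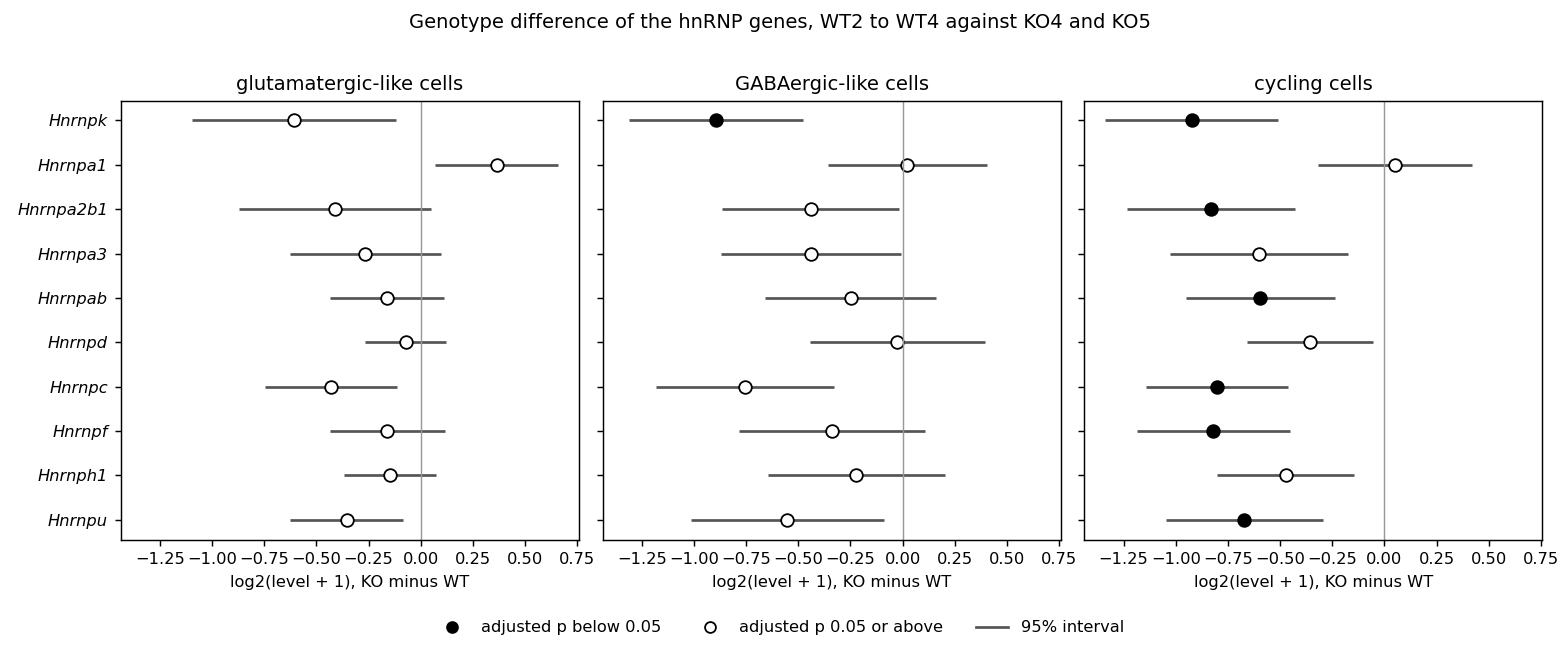
KO minus WT difference of log2(UMIs per 10000 + 1) for each hnRNP gene in 3 classes of cells (limma-trend, 3 WT and 2 KO libraries), with 95% intervals and filled points at an adjusted p below 0.05. In glutamatergic-like cells no point is filled, in GABAergic-like cells *Hnrnpk* is, and in cycling cells 6 genes are, from -0.92 to -0.59.

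The 6 calls in cycling cells became 2 without KO5 (*Hnrnpc* and *Hnrnpk*), 7 without WT4 and 5 with edgeR, and 0 with the library labelled WT replicate 5 or in the replicate block fit of WT4, WT5, KO4 and KO5 alone, in which *Hnrnpk* was at -0.31 and *Hnrnpf* at -0.15. EdgeR called 305 genes higher and 294 lower, limma 374 and 673. In these same KO cells the genes of mitosis were low, with *Ccna2* at 0.846 and 0.531 in KO4 and KO5 against 3.54, 4.66 and 2.83 in WT, and the neuronal splicing regulators *Rbfox1* and *Rbfox3* rose by 0.57 and 0.39 on the log2(level + 1) scale (adjusted p = 0.00477 and 0.0148). Their part in the lower hnRNP levels was not tested.

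The genotype difference was more negative in cycling than in glutamatergic-like cells for all 10 members, and for 6 of them this shift was called, against 5.39% of 7818 genes (a comparison added after the data had been seen). *Hnrnpf* had the largest value, -0.66 ± 0.12 (SE, adjusted p = 0.000685, limma), as its cycling minus glutamatergic-like difference was 0.96 ± 0.13 (SD) in the 3 WT and 0.30 ± 0.17 (SD) in the 2 KO libraries. For *Hnrnpa1* it was -0.31, with 0.36 in glutamatergic-like and 0.05 in cycling cells. *Hnrnpab*, *Hnrnpa2b1*, *Hnrnpc* and *Hnrnpk* were also called, with -0.43 to -0.32. Leaving out 1 library left 2 to 5 members called (2 without KO5), and the library labelled WT replicate 5 left 0. The fit with a replicate block, which also changed the libraries to WT4, WT5, KO4 and KO5, left 0 too. Between GABAergic-like and glutamatergic-like cells no member was called (2 at an unadjusted p under 0.05), against 1.19% of 7999 genes, with *Hnrnpk* at -0.29 (adjusted p = 0.394) and *Hnrnpa1* at -0.34 (adjusted p = 0.172).

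Among related genes, 22 other hnRNP genes were measured in glutamatergic-like cells, and 2 rose in KO while none fell by the test, beside 200 higher and 52 lower of 8289 genes (3.04% in all). *Khsrp*, a KH-domain protein that promotes mRNA decay, rose from 0.243 ± 0.0151 (SD, n = 3) to 1.10 ± 0.240 (SD, n = 2) UMIs per 10000 (0.75, adjusted p = 0.00116, limma), and it was also called higher in GABAergic-like and cycling cells. *Hnrnpul1*, a relative of *Hnrnpu*, was at 0.690 ± 0.0533 in WT and at 1.25 ± 0.0541 in KO (0.41, adjusted p = 0.0184). The lowest values were those of *Hnrnpm* (-0.55) and *Hnrnpr* (-0.43), which were not called. In cycling cells 5 of these genes fell (*Rbmx*, *Pcbp2*, *Hnrnpr*, *Syncrip* and *Ptbp1*, from -0.77 to -0.46), beside 7.67% of all genes, and 1 rose. The median over the list was -0.19 in glutamatergic-like and -0.21 in cycling cells, beside -0.04 over all genes in both. Here too all genes were not matched by level.

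Of 12 SR protein genes, none was called in glutamatergic-like cells (3 at an unadjusted p under 0.05, limma), where *Srsf11* and *Srsf1* had -0.52 and -0.30 and *Srsf2* and *Srsf9* 0.96 and 0.15. *Srsf2* varied from 1.07 to 3.93 among the WT libraries and was at 4.45 and 4.56 in KO. In cycling cells 5 fell (*Srsf11*, *Srsf1*, *Srsf4*, *Srsf5* and *Srsf6*, from -0.74 to -0.49), beside 7.67% of all genes. The median of the list was -0.15 in glutamatergic-like and -0.46 in cycling cells. None of the 7 Sm protein genes, the core of spliceosomal snRNPs, was called in either class, with 0.32 for *Snrpf*, 0.15 for *Snrpe*, -0.08 for *Snrpg* and -0.27 for *Snrpd3* in glutamatergic-like cells.

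Of the 13 neuronal splicing regulators, 11 were tested in glutamatergic-like cells and *Rbfox1*, an activator of neuronal exons, fell from 1.95 ± 0.119 (SD, n = 3) to 1.12 ± 0.221 (SD, n = 2), by 0.48 on the log2(level + 1) scale (adjusted p = 0.0326, limma). *Celf2* and *Elavl2* had -0.55 and -0.53 and *Celf4* and *Mbnl1* 0.08 and 0.07, and were not called. In cycling cells *Elavl4* fell (-0.84) while *Rbfox1* and *Rbfox3* rose. Between cycling and glutamatergic-like cells, *Rbfox1* differed by -1.05 in the mean of the WT libraries and by 0.01 in that of KO.

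For the same class difference over all 5 libraries, 10 of 22 other hnRNP genes, 7 of 12 SR protein genes and 5 of 7 Sm protein genes were called higher in cycling cells and none lower, beside 12.9% of 7818 genes higher and 1259 genes lower. *Srsf3*, which couples splicing with mRNA export, had 0.52, *Hnrnpm* 0.46 and *Snrpb* 0.40. Of the neuronal splicing regulators 6 of 11 tested were lower, among them *Rbfox2* with -0.64 and *Celf2* with -0.53, and none was higher. In GABAergic-like cells, *Khsrp* (0.82, adjusted p = 0.0166, limma) was the single gene of these 4 lists that was called.

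Over the 20 means of 4 classes in 5 libraries, levels of *Hnrnpk* went along with those of *Hnrnpc* (Pearson r = 0.950), *Hnrnpa2b1* (0.915), *Hnrnpu* (0.863), *Hnrnpa3* (0.841) and *Hnrnpf* (0.771). The remaining members had lower values, 0.674 for *Hnrnph1*, 0.427 for *Hnrnpab*, 0.195 for *Hnrnpd* and -0.236 for *Hnrnpa1*. Of the genes compared, 99.9% had a lower r than *Hnrnpc*, 99.0% than *Hnrnpa2b1*, 96.0% than *Hnrnpu*, 94.6% than *Hnrnpa3* and 89.7% than *Hnrnpf*. For *Hnrnph1*, *Hnrnpab*, *Hnrnpd* and *Hnrnpa1* this share was 82.3, 61.2, 48.1 and 29.7%. Among the other genes of the 1557 with a mean of at least 1, *Ube2d3*, *Rsl1d1*, *Ywhaq* and *Sept7* were among those most like *Hnrnpk*, with r from 0.950 to 0.925. The points share libraries, and WT3, which had the highest *Hnrnpk* in each class, and the KO libraries, which had the lowest, shape these values, so they are given as a description.

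In the libraries left out of the comparison, *Hnrnpk* in glutamatergic-like cells was at 6.48 in the library labelled WT replicate 5, 6.99 in KO1 and 9.81 in KO2. WT1 had 13 such cells. KO2 therefore lay above WT4, and WT5 below each library labelled KO. With the 8 libraries of at least 20 such cells as labelled, *Hnrnpk* was at -0.32 (adjusted p = 0.744) and *Hnrnpa1* at 0.06 (adjusted p = 0.949), and no gene was called. *Hnrnpa1* was at 18.3 in WT5, above KO4 and KO5, and at 11.2 in KO1, below each other library.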

How the data were processed

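The authors aligned reads to mm10 (GRCm38) and counted UMIs with Cell Ranger (2.1.0 is named in the submitters' processing notes), and filtered cells with Seurat 2.3.4. UMI counts per gene and cell were deposited for WT and KO replicates 4 and 5. The other 5 libraries were deposited as the natural log of 1 plus UMIs per 10000, from which 100% of values came out as whole UMIs within 1e-06.

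Cells had 1000 to 5000 genes, 1800 to 10000 UMIs, less than 6% mitochondrial and at most 1% haemoglobin UMIs. A cell took the class, among 9, whose list of 8 markers had most genes detected (at least 2, ties unassigned), and classes of a library with under 20 cells were left out. Doublets were not called, so cells holding markers of more than 1 class can lie in any class. UMIs per 10000 were averaged over cells, and limma-trend with robust variances (limma 3.58.1, R 4.3.3) was run on log2(mean + 1) leaving out genes that did not reach 0.1 in 2 libraries, 2-sided, with Benjamini-Hochberg adjustment over all genes and calls below 0.05. EdgeR 4.0.16 with TMM, DESeq2 1.42.0, another pseudocount, filters, depths, gates and sets of libraries were alternatives. Tests were tried on simulated data.

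The members and the lists of related genes were chosen with earlier results of these data known, and the study itself named *Hnrnpk* as lower in KO, so its direction is not independent evidence. Named genes are all members, the called genes of each list with the 2 largest rises and falls in glutamatergic-like cells, and the genes most like *Hnrnpk*. A planned comparison within the glutamatergic-like cells and 1 gene of the last group are not reported here. To see whether replicate numbers pair WT with KO, deviations from the group means were correlated over 1508 genes in glutamatergic-like cells. The correlation was 0.353, 0.240 and 0.507 for replicates 2, 4 and 5. The highest value of a pair with different numbers was 0.433 (WT5 with KO4), above replicates 2 and 4. These values therefore do not settle whether the numbers pair the libraries, and the main comparison did not use the numbers.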

Additional observations from a re-analysis of the deposited data

Results flagged for a closer look

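Among the 4 libraries labelled KO, *Hnrnpk* in glutamatergic-like cells was at 9.81 UMIs per 10000 in KO2 and at 6.84 to 6.99 in the others, and over all kept cells at 9.15 in KO2 and 6.84 to 6.88 in the others. *Hnrnpc* was at 7.70 in glutamatergic-like cells of KO1 against 2.57 to 2.98 in the others, and at 7.05 against 2.54 to 2.85 over all kept cells. These 4 values of 40 groups checked lay far from the rest of their group, where a gap of this size is set to arise by chance in about 1 in 20. All kept cells include the glutamatergic-like cells, so the 4 values stand for 2 genes and are not independent. KO1 and KO2 were small, with 93 and 35 glutamatergic-like cells, and neither entered the genotype comparison.

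The shift of the KO minus WT difference between cycling and glutamatergic-like cells passed the test of that shift (limma) for 6 members, with -0.66 for *Hnrnpf*, -0.43 for *Hnrnpab*, -0.42 for *Hnrnpa2b1*, -0.37 for *Hnrnpc*, -0.32 for *Hnrnpk* and -0.31 for *Hnrnpa1*. The separation of the 2 classes itself was 42.9- to 82.4-fold in WT2, WT3 and WT4 and 7.52- and 3.81-fold in KO4 and KO5 by genes that no gate used, and its part in these shifts was not tested.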

How the results depend on the processing

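Values are genes or members called, or the log2 difference of a member that changed sign. Of 560 values of members under alternatives, 454 kept their direction and side of the threshold, 55 lost the call, 13 gained it and 38 changed sign. The cause was not tested.

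Leaving out each library in turn gave 44 to 1080 genes and 0 to 4 members called in glutamatergic-like cells, 25 to 609 and 0 to 2 in GABAergic-like cells, and 460 to 1105 and 2 to 7 in cycling cells. For the difference of the genotype effect it gave 21 to 407 genes and 0 members between GABAergic-like and glutamatergic-like cells, and 428 to 1202 and 2 to 5 between cycling and glutamatergic-like cells. For the class difference it gave 1683 to 2190 genes and 7 members. In GABAergic-like cells *Hnrnpa1* then ranged from -0.018 to 0.065 and *Hnrnpd* from -0.28 to 0.23, both with the opposite sign without WT2 and without KO4. In the comparison of GABAergic-like with glutamatergic-like effects, *Hnrnpa2b1* ranged from -0.081 to 0.018 (opposite without WT4 and KO4), *Hnrnpd* from -0.23 to 0.32 (WT4 and KO5), *Hnrnpf* from -0.40 to 0.044 and *Hnrnpu* from -0.46 to 0.066 (KO4), and *Hnrnph1* from -0.17 to 0.018 (KO5).

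With the library labelled WT replicate 5, 0 genes were called by limma in each genotype comparison and in both comparisons of effects (338, 911 and 712 at an unadjusted p under 0.05 in glutamatergic-like, GABAergic-like and cycling cells), and 427 genes with 2 members for the class difference. In GABAergic-like cells *Hnrnpa1* and *Hnrnpd* were then at -0.068 and 0.062.

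The replicate block, fitted on replicates 2, 4 and 5 in glutamatergic-like cells and on replicates 4 and 5 otherwise, so that libraries and block changed together, called 0 genes in glutamatergic-like cells, 6 genes and 0 members in GABAergic-like cells, 0 in cycling cells, 5 genes between GABAergic-like and glutamatergic-like effects and 0 between cycling and glutamatergic-like effects (591, 377, 300, 410 and 248 at an unadjusted p under 0.05). The same libraries of glutamatergic-like cells without the block, a fit chosen after seeing the data, gave 0 (268 unadjusted) and the same differences, of which *Hnrnpa2b1*, *Hnrnpa3*, *Hnrnpd*, *Hnrnpf* and *Hnrnph1* were 0.096, 0.11, 0.016, 0.0040 and 0.073. With the block, in GABAergic-like cells *Hnrnpa1*, *Hnrnpa3*, *Hnrnpd* and *Hnrnpf* were -0.16, 0.12, 0.21 and 0.14, and in cycling cells *Hnrnpa1* and *Hnrnpa3* were -0.015 and 0.19. Between effects, *Hnrnpa3* and *Hnrnpf* were 0.083 and 0.041 for GABAergic-like cells and *Hnrnpa3* 0.16 for cycling cells.

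In glutamatergic-like cells DESeq2 called 387 genes and 1 member, no filter on low values 35 genes (more genes were tested), cells with fewer than 4000 UMIs 166 and all libraries as labelled 0 (515 unadjusted). *Hnrnpd* was 0.017 with edgeR and 0.020 with DESeq2, and *Hnrnpab*, *Hnrnpd*, *Hnrnpc* and *Hnrnph1* were 0.016, 0.084, 0.020 and 0.060 with all libraries. In cycling cells edgeR called 599 genes and a stricter gate, added after seeing the data, 270. In GABAergic-like cells the median of all genes was -0.03 with limma and -0.15 with edgeR. Depth limits the smallest classes, where a level of *Hnrnpd* rested on 8 to 9 UMIs in KO5.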
